A study of Glycine max with 12 samples.

Results

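Of the 66210 soybean (Glycine max) gene models listed in the count files, 219 are called steady here. They were abundant and varied by at most 2.5-fold over the 10 libraries that were deposited as counts. These genes were chosen by their own measured levels. The read count of each gene was divided by the total of its library and multiplied by 1000000, which is its CPM. A gene was kept when its lowest CPM was at least 50 and its highest CPM was no more than 2.5 times the lowest. The levels and the ratios in the count libraries are therefore a description, and no test was made on them.

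All libraries came from cultivar Williams 82, raised in a greenhouse, with 1 library for each stage or organ. The count libraries were whole seeds at 4 growing stages, namely globular with a seed length of 0.8 to 1.1 mm, heart with 2 to 2.5 mm, cotyledon with 3 to 3.9 mm and early maturation with 6 to 7 mm, dry seeds of about 200 mg, whole seedlings of 7 to 10 cm at 6 days after imbibition, and young trifoliate leaves, nodule-free roots, stem internodes and unopened floral buds. The leaves, roots and stems came, per the labels, from a mature plant aged 3 to 4 months, and pooling over plants is not stated. Whole seeds at mid maturation (1.1 to 1.3 cm, 150 to 250 mg) and late maturation (1.2 to 1.5 cm, 230 to 350 mg) were deposited in another unit, RPKM (CPM divided by gene length in kilobases), and the rule did not use them. A whole seed holds embryo, endosperm and seed coat, so each value is a mixture of tissues, and fewer cells of a type and less RNA per cell cannot be told apart. With 1 library per stage or organ, differences between libraries could not be set against replicates, and p-values are not given.

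Genes whose transcripts stay level across tissues are often called housekeeping genes, since many of them serve functions that every living cell needs, such as protein synthesis, protein turnover and RNA processing. In plants they are used as internal standards when other transcripts are measured, and a dry seed is a demanding setting for them because it is quiescent and carries transcripts stored during maturation. A CPM is a share of the library and not an amount per cell. A gene steady in CPM keeps its share of the transcripts, whatever the total does. Soybean is an ancient tetraploid, and many of its genes have a duplicate (homeolog) on another chromosome.

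The files list the genes by locus identifier, without names. None of the 219 identifiers matched the reference gene table used here, so no function, sequence or coordinate is given, and homeolog pairs were not analysed here. For the same reason no marker gene of the labelled tissues could be looked up. The chromosome of each gene was read from the first digits of its identifier, which is the naming convention of soybean loci.

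Only 668 gene models had at least 50 CPM in each of the 10 count libraries, and the 219 steady genes are 32.8% of these. The other 449 served for comparison as abundant genes that are not steady. Total counts ran from 10296612 (stem) to 45726019 (globular seed), so that even the smallest count of a steady gene in any library was 536. Counting error in log2 CPM had a median of 0.031 (SD), against a median SD of 0.35 between the 10 libraries of a gene. Differences between libraries were thus mostly larger than counting error, but variation between plants is not known.

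The median CPM of a steady gene over the 10 libraries ranged from 60.0 to 969.5, with a median of 106 and quartiles of 84.3 and 150.0. For 24 of the 219 it was 200 CPM or more. The non-steady abundant genes had a higher median, 151 CPM, and reached 3055 CPM. Between the highest and the lowest library the steady genes differed by 1.19 to 2.50 times, with a median of 2.13. The ratio was under 2 for 81 genes and under 1.5 for 5. In the other abundant genes the median ratio was 3.85, and 43 of them varied more than 10-fold.

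**Figure D1:**
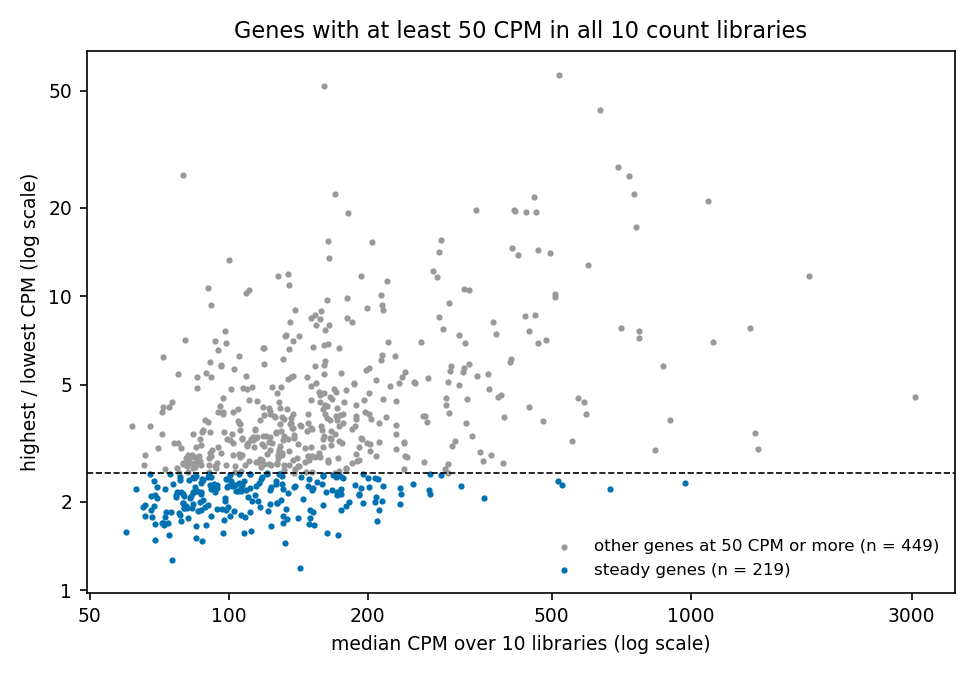
Each point is 1 of the 668 genes with at least 50 CPM in all 10 count libraries, with its median CPM on the horizontal axis and the ratio of its highest to its lowest CPM on the vertical axis, both on log scales. The dashed line is the limit of 2.5 that chose the 219 steady genes (blue), most of which lie close under it, and the 449 other genes (grey) spread up to a ratio of 56.4.

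Many genes lay near the limits of the rule. Glyma06g24600 and Glyma09g28650 were just inside the limit on the ratio, at 2.498 (95% counting interval 2.35 to 2.65) and 2.496 (2.33 to 2.68). Just outside it were Glyma12g09250 at 2.507 (2.39 to 2.63) and Glyma03g21710 at 2.507 (2.42 to 2.60). On the side of the level, Glyma01g45060 had a lowest value of 50.09 CPM and Glyma17g33510 of 50.15 CPM, while Glyma08g06010, at 49.5 CPM, and Glyma17g14280, at 49.4 CPM, were left out. For 44 of the 219 the counting interval of the ratio reached past 2.5, and for 34 of the 449 other abundant genes it reached inside. The edge of the set is therefore uncertain from counting alone. The intervals take the extreme libraries as given.

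The steadiest gene was Glyma11g09630 on chromosome 11. Along seed development it had 131 CPM (globular), 150 CPM (heart), 134 CPM (cotyledon), 132 CPM (early maturation) and 149 CPM (dry), and it had 156 CPM in seedling, 147 in leaf, 141 in root, 132 in stem and 143 in floral bud. Seedling was highest and globular seed lowest, a ratio of 1.19 (95% counting interval 1.14 to 1.24), and seed values lay within the range of the other organs except in globular seed and in early-maturation seed, which fell slightly below it.

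Glyma01g36410 on chromosome 1 followed, with a ratio of 1.26 (1.16 to 1.38). Its CPM in seeds was 73.7 (globular), 77.7 (heart), 71.4 (cotyledon), 72.8 (early maturation) and 66.1 (dry), against 77.4 in seedling, 74.0 in leaf, 77.1 in root, 83.5 in stem and 83.0 in floral bud. Dry seed alone lay below 70 CPM.

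The remaining genes with a ratio under 1.5 were Glyma09g34310 (1.45, from 111 CPM in root to 161 in heart seed), Glyma01g41660 (1.47, from 71.7 in stem to 106 in cotyledon seed) and Glyma09g04710 (1.49, from 55.4 in globular to 82.4 in dry seed). These 3 had their lowest and highest values in different libraries each, so no single library stood out among them.

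The steady gene with the most reads was Glyma08g18110 on chromosome 8. In seeds it had 1002 CPM (globular), 1109 CPM (heart), 1014 CPM (cotyledon), 1338 CPM (early maturation) and 691 CPM (dry), and elsewhere 576 CPM in seedling, 894 in leaf, 938 in root, 827 in stem and 1012 in floral bud. The peak at early maturation and the low values in dry seed and seedling were shared by Glyma15g40860 on chromosome 15, which had 779 CPM at early maturation, 387 in dry seed, 343 in seedling and between 473 and 651 CPM in the other 7 libraries. Glyma13g27570 ranged from 377 CPM in leaf to 831 in floral bud, Glyma02g11580 from 323 in dry seed to 760 at early maturation, and Glyma04g01840 from 252 in stem to 519.9 in globular seed. CPM grows with gene length. Per length, the median RPKM over the 10 count libraries was 315 for Glyma08g18110, 390 for Glyma13g27570, 172 for Glyma15g40860, 178 for Glyma02g11580 and 410 for Glyma04g01840, using gene lengths recovered from the RPKM files. The deposited RPKM at mid and late maturation was 317 and 567 for Glyma08g18110, 388 and 744 for Glyma13g27570, 149 and 264 for Glyma15g40860, 101 and 182 for Glyma02g11580, and 53.0 and 122 for Glyma04g01840. Glyma04g01840 was thus highest of the 5 by its recovered length of 869 nt and lowest by the deposited values. Where the recovery found a fraction (1/n) of the true length, the computed RPKM is too high by that factor, so no order of the 5 is given.

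**Figure D2:**
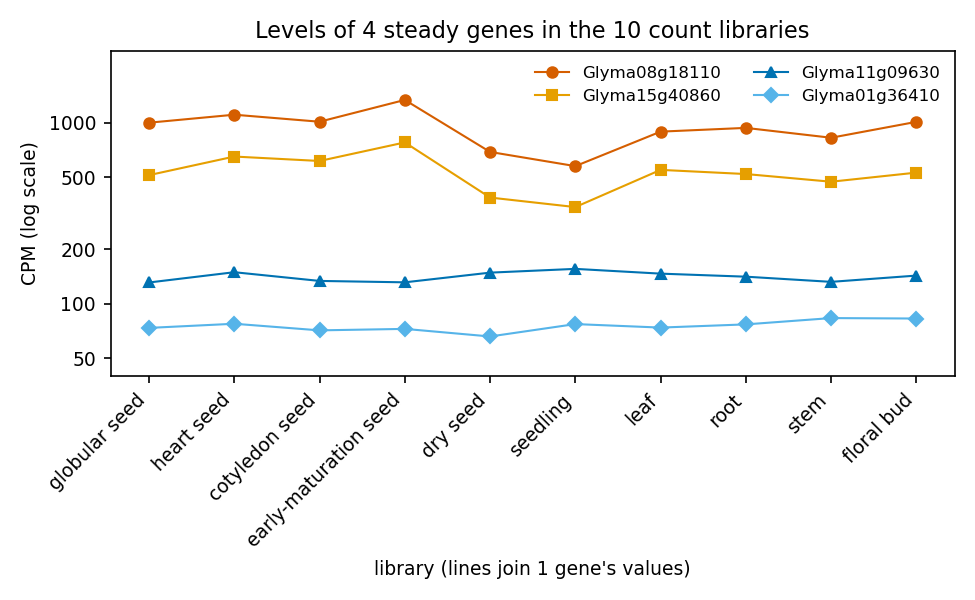
CPM (log scale) of 4 steady genes in each of the 10 count libraries. Glyma08g18110 and Glyma15g40860 have the same shape, highest at early maturation and lowest in seedling, while Glyma11g09630 (131 to 156 CPM) and Glyma01g36410 (66.1 to 83.5 CPM) are nearly flat.

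Together the 219 genes took a similar share of each library, between 2.60% of all counts in seedling (95% exact binomial interval 2.59 to 2.61%) and 3.38% in early-maturation seed (3.38 to 3.39%). The young seeds were close to each other, at 3.03% in globular, 3.10% in heart and 3.02% in cotyledon seed, and floral bud stood at 3.04%. Leaf had 2.89%, dry seed 2.85%, root 2.76% and stem 2.69%. The 449 other abundant genes, which met the limit on level and not the limit on the ratio, took between 9.52% (root) and 11.9% (early-maturation seed). Their summed share was thus also similar in each library. For the 219 genes the rule itself limits how far the summed share can vary, so nothing is read from its evenness.

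Within the allowed range, the extremes fell unevenly on the libraries. In CPM, the highest value was in early-maturation seed for 56 genes, in dry seed for 42, in heart for 32 and in globular seed for 19, and in cotyledon seed for only 6. Stem held it for 17 genes, root and leaf for 14 each, floral bud for 10 and seedling for 9. The lowest value was in leaf for 43 genes, in stem for 42, in seedling for 40, in dry seed for 32 and in root for 20. It was in heart and globular seed for 14 each, in early-maturation seed for 11, in cotyledon seed for 2 and in floral bud for 1. Seeds thus held the highest value of 155 genes and the lowest of 73. The commonest combination was highest at early maturation and lowest in seedling, found in 16 genes. The rule used these values, and shares over other genes were taken only for dry seed, so no trait of the steady genes is read from them. The counts also depend on the scaling: early-maturation seed was highest for 43 genes with TMM factors and 23 with DESeq2 size factors, 2 other scalings described below.

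Dry seed and leaf spread most around the genes' own medians, and floral bud and cotyledon seed least. The SD of log2(CPM / own median) over the 219 genes was 0.43 in dry seed, 0.41 in leaf, 0.21 in cotyledon seed and 0.20 in floral bud. Individual genes in dry seed ran from -1.11 to 0.94 on this scale, and 74 genes had either their highest or their lowest value there, more than in any other library. Dry seed was highest for 19.2% and lowest for 14.6% of the 219 genes. Among the 449 other abundant genes these shares were 21.4% and 33.0%. Among the 19631 genes with at least 1 CPM in every library they were 21.9% and 38.0%. The rule itself leaves out genes with a far lower value in 1 library.

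**Figure D3:**
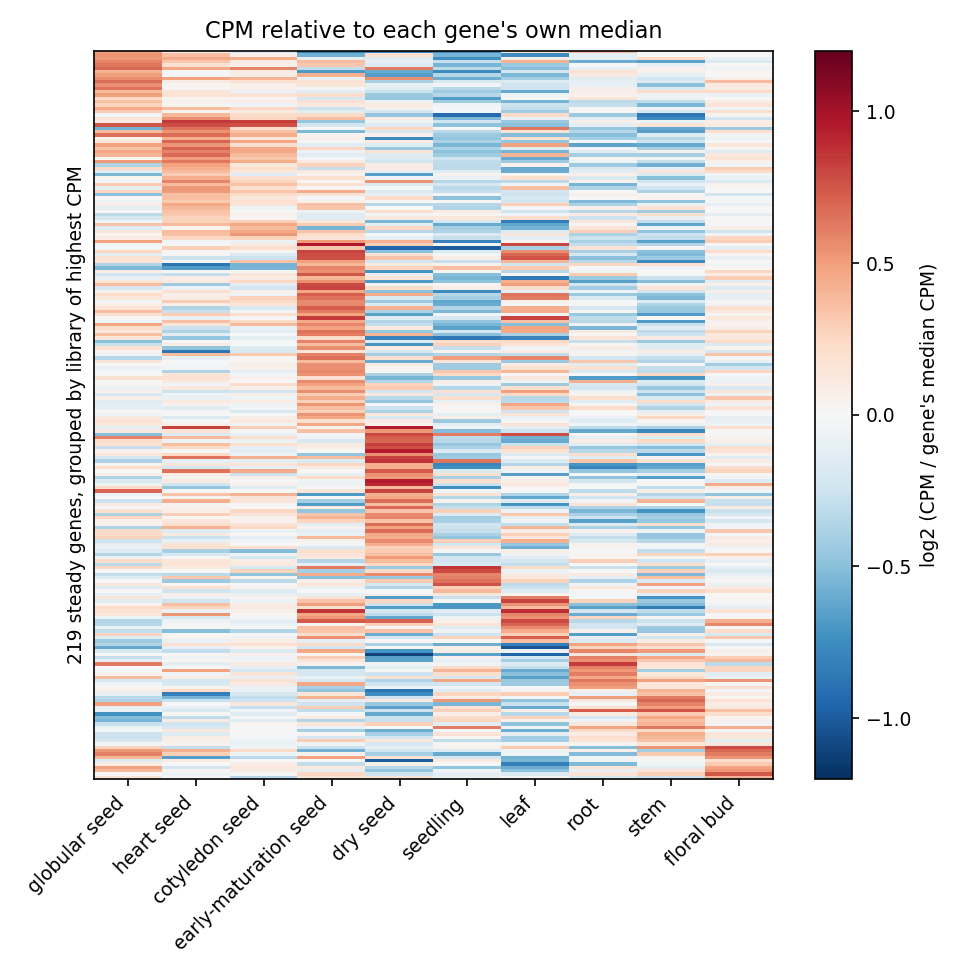
Each row is 1 of the 219 steady genes and each column 1 of the 10 count libraries, coloured by log2 of the CPM over the gene's own median, with rows grouped by the library of highest CPM. The blocks of early-maturation (56 genes), dry (42) and heart seed (32) are the tallest, and the columns of cotyledon seed and floral bud are the palest.

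The dry seed also decided how many genes qualified. Leaving that library out, with column totals unchanged, gave 538 steady genes in place of 219, a gain of 319. No other library had such an effect. Leaving out leaf added 77 genes, stem 48, early-maturation seed 36, seedling 26, heart seed 23, globular seed 18, root 12, floral bud 6 and cotyledon seed 1.

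The scaling of the libraries changed which genes were steady more than how many. TMM, a scaling by the trimmed mean of ratios between libraries, assumes that most genes do not differ. It gave the dry seed a factor of 0.591, against 0.923 to 1.27 for the other libraries, which raises every level in the dry seed. With TMM 179 genes met the same limits, of which 102 were among the 219. Of the 219, 115 had a TMM ratio above 2.5, and 95 of these were highest in dry seed. With DESeq2 size factors 202 genes met the limits, and 99 were among the 219. All 3 scalings kept 87 genes.

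After TMM the steady genes stood, in the median, at 1.70 times their own median level in dry seed, and 143 of the 219 had their highest level there and none their lowest. With DESeq2 size factors this was 1.85 times and 167 genes. In CPM the same quantity was 0.977. The factor raises every gene in the dry library alike, so genes chosen for a flat CPM stand above their own median there by construction, and nothing is read from these counts. Over the 19631 genes with at least 1 CPM in every library, the median level in dry seed went from 0.772 (CPM) to 1.26 times (TMM) the gene's own median, and the share highest there from 21.9% to 38.8%. Which scaling is closer to transcript amounts per cell was not tested.

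For Glyma11g09630, the steadiest in CPM, the TMM level was 252 in dry seed and between 113 and 154 in the other 9 libraries, a ratio of 2.23. Under TMM the smallest ratio among the 219, 1.52, was that of Glyma11g12120 on chromosome 11, a gene singled out after its values were seen. In CPM it had 51.1 in dry seed, its lowest value, and 69.3 in leaf, against 90.4 to 116 in the other 8 libraries. In TMM levels it ran from 72.5 in leaf to 110 at early maturation, with 86.4 in dry seed. For Glyma01g36410 the TMM ratio was 1.76, so it stayed within the limit on both scales.

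**Figure D4:**
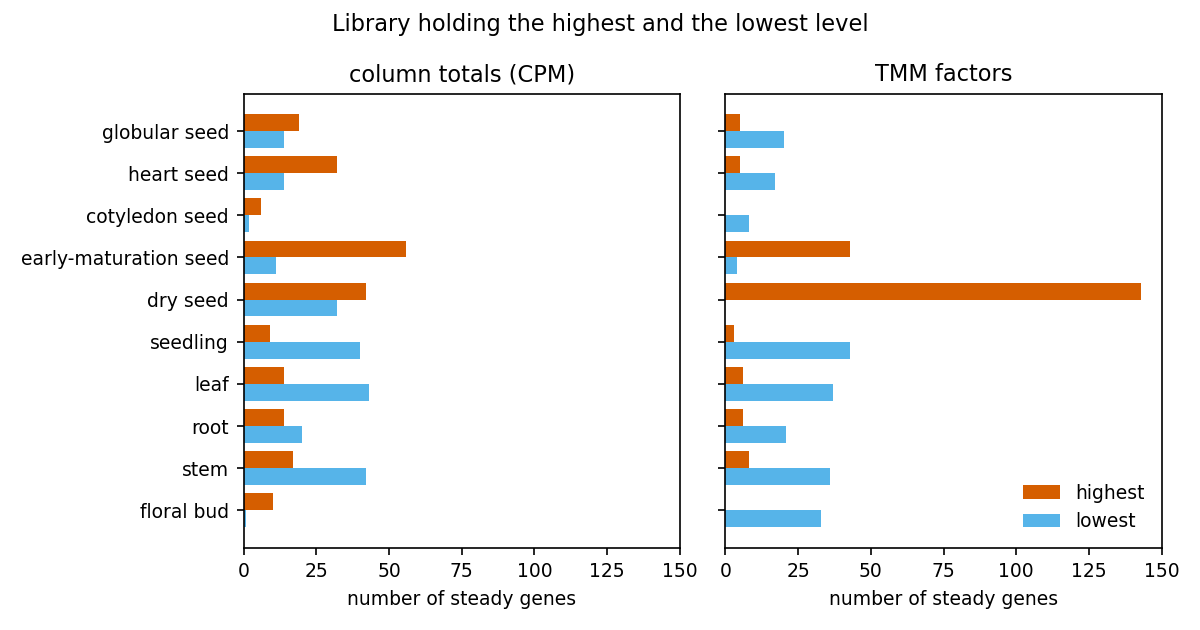
Number of the 219 steady genes whose highest (orange) and lowest (blue) level lay in each count library, with scaling by column totals (left) and by TMM factors (right). The highest level moves to the dry seed, from 42 genes to 143, while leaf, stem and seedling hold many of the lowest levels on both scales.

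Complete separation of seeds from the other organs was uncommon both among the steady genes and among genes in general. The rule used the CPM values, and TMM and DESeq2 scaling both raise every level in the dry seed. Nothing is therefore read from differences between the steady genes and the background. In CPM, all 5 seed libraries lay above all 5 others for 6 genes (2.74%), against 2.03% of the 19631 genes with at least 1 CPM in every library. The reverse held for 1 gene (0.457%), against a background of 2.43%. With TMM these counts were 20 (9.13%) and 0, against 5.98% and 1.59% of the same background genes. With DESeq2 size factors they were 10 (4.57%) and 0, against 4.41% and 2.01%. Of the 6, Glyma10g31190 on chromosome 10 had the largest difference in medians, with seed levels of 146 CPM (globular), 147 CPM (heart), 125 CPM (cotyledon), 95.2 CPM (early maturation) and 97.6 CPM (dry), and between 64.2 CPM (leaf) and 89.5 CPM (floral bud) in the other organs. Glyma11g14050 on chromosome 11 was the 1 gene lower in seeds, with 62.4 to 74.3 CPM there, against 94.1 in seedling, 79.7 in leaf, 127 in root, 130.0 in stem and 99.1 in floral bud. Both were singled out after their values were seen. Over all 219, the median of the seed libraries was typically 1.12 times the median of the others (1.21 with TMM, 1.10 with DESeq2 size factors). The seed median was the higher for 144 genes in CPM, 162 with TMM and 133 with DESeq2 size factors. The share among other genes was not computed, so these counts only describe the chosen genes.

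The mid- and late-maturation libraries were not used to choose the genes and show how they behaved elsewhere. Both files list the same 213 of the 219 genes. Of the other 449 abundant genes 93.8% were listed in at least 1 of the files, and of all gene models with counts 64.7%. The RPKM files list only genes above 0, and 8414 of their identifiers end in a digit other than 0. For 5 of the 6 missing genes, a listed identifier differed in the last digit alone, and whether it stands for the same gene was not tested. The 6 had a median CPM of 73.2 to 123 in the count libraries.

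Of the 213, all but 1 reached at least 5 RPKM in the higher library. The exception, singled out after its values were seen, was Glyma09g30440 on chromosome 9. It had 59.4 to 99.2 CPM in the count libraries, with 708 to 4535 counts, but was listed at 0.181 RPKM at mid and 0.156 RPKM at late maturation. Its count libraries differed by only 1.67 times (1.57 to 1.77). For this gene, stage and processing cannot be told apart.

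The other 212 genes ranged from 6.48 to 388 RPKM at mid maturation (median 28.0) and from 9.09 to 744 RPKM at late maturation (median 45.6). The late value was higher for 180 of the 212 (84.9%), against 67.1% of all genes tested and 73.3% of the other abundant genes. The median log2 ratio of late to mid maturation, on log2(RPKM + 0.5), was 0.65, with quartiles of 0.26 and 0.94. It was 0.73 over all 15802 genes with at least 5 RPKM in the higher library, and 0.68 over 419 of the other abundant genes. The medians of the 3 sets were thus alike, while the spread differed: the SD of the log2 ratio was 0.62 for the steady genes, 1.13 for the other abundant genes and 2.05 for all genes.

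With the limit of 2.5-fold used by the rule, 24 of the 212 genes (11.3%) were called higher at late maturation, against 32.8% of all genes, and 1 (0.472%) was called lower, against 16.3%. Among the other abundant genes the shares were 28.9% and 2.63%. After the ratios were rescaled so that the median gene above 1 RPKM in both libraries had a log2 ratio of 0, a shift of 0.48, 11 of the 212 (5.19%) lay more than 2.5-fold apart, against 42.5% of all genes and 23.4% of the other abundant genes. All genes include many at low levels, where counting error is larger. There is 1 library per stage, so these shares compare 2 libraries and have no test.

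**Figure D5:**
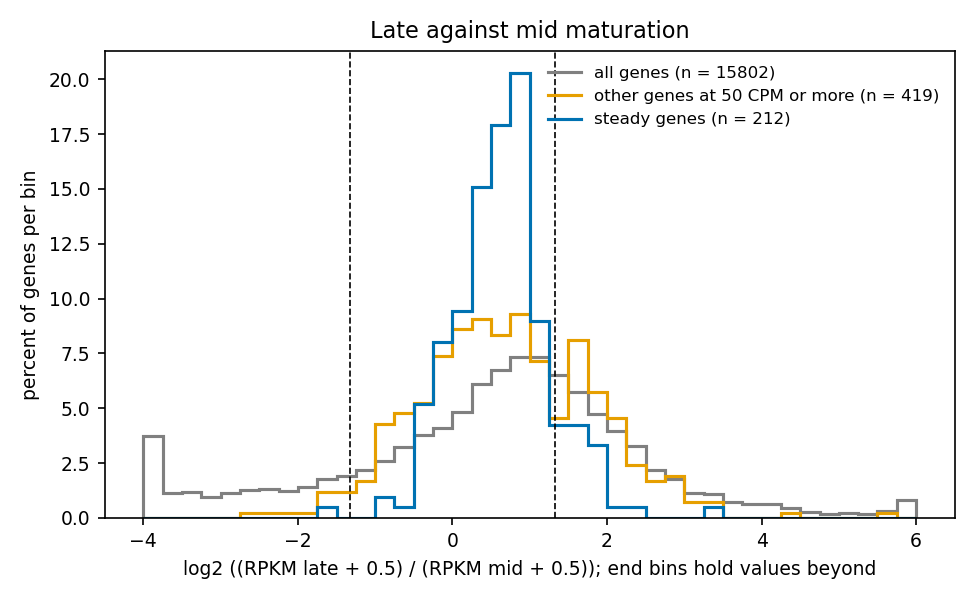
Percent of genes in each bin of log2((RPKM late + 0.5) / (RPKM mid + 0.5)), for 212 steady genes (blue), 419 other abundant genes (orange) and all 15802 genes with at least 5 RPKM in the higher library (grey). The dashed lines mark 2.5-fold. The 3 sets have similar medians (0.65, 0.68 and 0.73), and the steady genes form the narrowest peak.

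At the ends of this distribution were genes that the count libraries alone would not single out. Glyma05g29990 on chromosome 5 was listed at 6.87 RPKM at mid and 73.8 RPKM at late maturation, 10.1 times higher on the log2(RPKM + 0.5) scale. In the count libraries it ran from 67.0 CPM in stem to 140 in dry seed. Glyma13g19310 on chromosome 13 went from 18.4 to 96.4 RPKM (5.12 times), and in the count libraries it too was lowest in stem (60.7 CPM) and highest in dry seed (145 CPM). In the opposite direction, Glyma09g32540 on chromosome 9 was listed at 188 and 64.2 RPKM, 2.91 times lower at late maturation, with 314 CPM in seedling and 128 in dry seed as its extremes. Glyma08g43290, at 98.3 and 53.7 RPKM, was 1.82 times lower and not called. The steadiest gene of the count libraries, Glyma11g09630, had 19.9 and 21.2 RPKM, and Glyma01g36410 had 12.2 and 15.4. Glyma09g04710, also under a ratio of 1.5 in the count libraries, had 10.1 and 39.5 RPKM, a 3.78-fold difference.

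To set all 12 libraries side by side, RPKM was computed from the counts as CPM over the recovered lengths of the 213 genes in kilobases. As they stand, the mid-maturation values were lowest of the 12 for 156 genes, and 41 genes kept within 2.5 times. The later libraries lay below the median of the count libraries for genes in general, by 1.18 (mid) and 0.64 (late) on the log2 scale. The 2 units also differ in their totals. CPM used the total over gene models. By the recovered lengths, genes listed in both files held 87.8% (mid) and 89.0% (late) of the depth behind the deposited RPKM. With these shifts taken off, 113 of the 213 genes kept within 2.5 times over all 12 libraries, and the mid- and late-maturation values lay inside the gene's own range of the 10 count libraries for 120 and 94 genes. Glyma01g36410 had the smallest ratio over the 12, 1.49, with a rescaled 27.8 RPKM at mid and 24.0 at late maturation and 28.3 to 35.8 RPKM in the count libraries. These later libraries differ from the others in deposited unit and in instruments, so stage and batch cannot be told apart, and a length that came out too small could push a gene out of the limit.

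The recovered lengths themselves were not used by the rule. The 213 genes had a median length of 1713 nt (quartiles 1004 and 2405), close to 1669 nt for 420 of the other abundant genes and 1592 nt for all genes with counts and a length. The steady genes were spread over all 20 chromosomes, from 3 on chromosome 14 and 4 on chromosome 16 to 20 on chromosome 8. Relative to the number of gene models the range was 1.05 per 1000 (chromosome 14) to 5.58 per 1000 (chromosome 5). These 2 chromosomes also differ in genes with at least 50 CPM in all 10 libraries, with 14 and 42. As a share of such genes, the steady genes ranged from 20.5% (chromosome 3) to 44.4% (chromosome 15), with 21.4% on chromosome 14 and 38.1% on chromosome 5. No 2 steady genes were next to each other in identifier order.

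Since duplicates could not be assigned, the steady genes were compared by shape alone, a comparison chosen after values were seen. For each of the 23871 pairs, the SD over the 10 libraries of the log2 ratio of the 2 genes was taken. It is small when they rise and fall together, and also when both are nearly flat. Its median was 0.45. The most parallel pair was Glyma08g18110 and Glyma15g40860, with an SD of 0.086: the former had between 1.63 and 1.95 times the CPM of the latter in every library. In the later libraries, which this choice did not use, they had 317 and 149 RPKM at mid and 567 and 264 RPKM at late maturation, with log2 ratios of late to mid maturation of 0.84 and 0.82. Next in SD came Glyma06g17960 and Glyma06g39710 (0.093) and Glyma02g44330 and Glyma14g04480 (0.115). Of the 10 most parallel pairs, 9 had their genes on different chromosomes, as did 22610 of all pairs.

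For the 10 most parallel pairs, the likeness that this SD measures did not in general carry over to the later libraries. Whether it does over all pairs was not tested. The 10 most parallel pairs include Glyma09g34310 and Glyma11g09630, both nearly flat, with own ratios of 1.45 and 1.19. Among the 10 most parallel pairs the log2 ratios of late to mid maturation differed by a median of 0.60, from 0.016 to 0.95, against a median of 0.55 over the 22578 pairs with RPKM. The pair Glyma08g18110 and Glyma15g40860 was the 1 pair among the 10 with a difference under 0.1, and 10% is a share close to the 9.90% over all pairs with RPKM. How the authors divided reads that match several places is not given in the sources used here, so shared reads between near-identical copies could add to such likeness, and this was not tested.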

How the data were processed

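The authors deposited, per the file headers, the number of mapped reads per gene model (counts) for 10 libraries, and RPKM for the mid- and late-maturation libraries, listing genes above 0 only. Reads were aligned with Bowtie, and bedtools was also used for the RPKM libraries, per the submitters' processing notes. Versions, genome build and annotation were not given in the sources used here. Per the labels' protocols the mRNA was selected by its poly(A) tail, and a HiSeq instrument is named beside the Genome Analyzer for the RPKM libraries.

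CPM used column totals over all gene models. TMM factors came from edgeR 4.0.16 and size factors from DESeq2 1.42.0 in R 4.3.3, and no model was fitted. Intervals of ratios are exact conditional binomial (Clopper-Pearson) 95% intervals and those of shares exact binomial ones. Both cover counting error only and leave out variation between plants. PCR copies are counted as if independent, so the intervals can be too narrow.

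In RPKM, a low gene steps by what 1 read is worth, which gave depths of 59542387 reads (mid) and 103601188 (late). Of the 1500 lowest values, 87.4% and 91.1% corresponded to a single read on a gene of whole length, within a tolerance of 0.03. Gene length was the smallest whole number, from 100 to 20000 nt, that made the reads of both libraries whole within 0.0001, with a slightly wider tolerance for large counts. On simulated data the same steps returned some lengths as a fraction (1/n) of the true one, so values per length are uncertain. Late and mid maturation were compared on log2(RPKM + 0.5), with calls at 2.5-fold and 5 RPKM in the higher library, among genes listed in both files.

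The genes, limits and comparisons were chosen with earlier results of these data known. Named genes are the 5 with the highest median CPM, the 5 with the smallest ratio, those next to each limit and the extremes of late against mid maturation; others are marked as singled out later. None of the 74818 identifiers matched the reference table (Glycine_max_v4.0, 59048 genes). Python 3.11.15, numpy 2.4.6, pandas 2.3.3, scipy 1.17.1 and matplotlib 3.10.9 were used.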

Additional observations from a re-analysis of the deposited data

How the results depend on the processing

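The number of steady genes, 219, was 179 with TMM factors, 202 with DESeq2 size factors and 326 with a ratio limit of 3. It was 81 with a limit of 2, 855 with a minimum of 20 CPM, 62 with a minimum of 100 CPM and 2486 with only 3 counts required in every library. Leaving out 1 library at a time gave 220 to 538, and dry seed was the only library whose removal moved the count by over 1.5 times. The 56 genes highest at early maturation became 43 with TMM and 23 with DESeq2 size factors, and the 43 genes lowest in leaf became 37 and 42. Without the 10 most abundant genes of a library, the highest share of counts was 3.66% (early-maturation seed) and the share in seedling 2.71%. Genes more than 2.5-fold apart between mid and late maturation numbered 25, then 26 with a pseudocount of 0, 23 with 1, 25 without the filter on low values and 11 after rescaling. The median log2 ratio was 0.66, 0.63, 0.65 and 0.17 in that order. Over 12 libraries, 41 genes kept within 2.5 times as they stand and 113 after rescaling. The median length was 1922 nt when lengths under 1000 nt were left out. With scalings added after seeing the data, all seed libraries lay above the others for 20 (TMM) and 10 (DESeq2) genes in place of 6, and below them for 0 and 0 in place of 1. The causes of these shifts were not tested. No paired analysis was possible because each stage or organ had 1 library. Depth limits the edge of the set, where counting intervals span the limit.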
